A study of Mus musculus with 10 samples.

Results

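Hyaluronan is a long, unbranched sugar chain that synthases of the cell membrane spin out into the matrix, and that hyaluronidases and lysosomal glycosidases take apart again. Outside the cell it binds versican and aggrecan, large proteoglycans that carry chondroitin sulfate chains, and link proteins fix that bond. Cells hold on to the chain through receptors, of which Cd44 is the best known, and inflamed tissue remodels it with TSG-6, the product of Tnfaip6. In the arterial wall this water-binding matrix is known for filling the space between elastic layers and for being laid down anew after injury.

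The genes described here were 10 names, taken from the arrays wherever the name of a probe that was not a control equalled Has1, Has2, Has3 (synthases), Hyal1, Hyal2 (hyaluronidases), Vcan, Acan (proteoglycans), Hapln1 (link protein), Cd44 or Tnfaip6. All 10 were on the arrays, with 18 probes between them, among 35527 gene names. Of these, 9 passed the filter on dim signal and were tested with 22520 names in all, and Has3 did not pass it. The samples were infrarenal aortas of male C57BL/6J mice aged 10 weeks on a normal diet, harvested 7 days after surgery. In the PPE group (5 mice), the aorta was infused for 5 min at 100 mmHg with type I porcine pancreatic elastase (PPE) at 1.5 U per mL, an elastin-digesting enzyme after which an aneurysm forms. The sham mice (5) had saline infused in the same way. All mice had surgery, so neither group stands for an untouched aorta, and the elastase model starts from enzyme damage and not from the slow course of human disease. Each array carried RNA of 1 aorta (500 ng, red dye) against universal mouse reference RNA, a pool of cell line RNA (green dye). Values are log2 ratios of aorta over that reference, so the zero point differs between genes and a level of one gene cannot be set against that of another. A difference is PPE minus sham on this scale.

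The share of red spots well above background ran from 37.6% (sham 5) to 65.8% (PPE 1), and a dim array measures low genes less well. The groups also differed in their cell markers. Of the leukocyte markers, 3 of 3 were called higher in PPE aortas (median difference 2.54, with Ptprc, the pan-leukocyte phosphatase CD45, at 3.07). Macrophage markers were called higher for 6 of 8 (median 2.16), neutrophil markers for 4 of 5 (3.26) and T cell markers for 4 of 5 (2.36). One of the called neutrophil markers, Mmp8, passed the filter through the PPE group alone (well above background in 0 sham and 5 PPE aortas). Another, Cxcr2, was well above background in 1 sham and 5 PPE aortas. Summed normalized red signal, in intensity units, ran from 5435 to 14606 in sham and from 28133 to 64412 in PPE aortas for the leukocyte list. For the macrophage list it ran from 29073 to 45997 in sham and from 133354 to 272387 in PPE aortas. By limma, B cell markers were called for 0 of 4 and skeletal muscle markers for 0 of 5. Each list had 0 at an unadjusted p under 0.05 and 0 by SAM, the test of the study, here written anew. This SAM called 4875 names higher and 3263 lower of 22489, more than limma did (3116 and 2243 of 22520). Endothelial markers were called for 0 of 6 (median 0.04, with 1 at an unadjusted p under 0.05 and 1 by SAM), adipocyte markers for 0 of 5 (median -0.72, with 3 and 0, and a summed red signal from 322021 to 425285 in sham and from 110531 to 188651 in PPE aortas, without overlap) and mesothelial markers for 1 of 5 (Wt1, 2.54). Smooth muscle markers were called lower for 5 of 6 (median -1.84, with the actin gene Acta2 at -2.49), their summed red signal running from 842158 to 1288437 in sham and from 144475 to 251358 in PPE aortas, and fibroblast markers higher for 3 of 6 (median 0.93). In these bulk samples, fewer cells of a type and less RNA per cell cannot be told apart, and the part of these shifts in the results below was not tested.

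The arrays read each gene through probes of 60 bases, and 4 of the 10 genes had several. The probes shown here are those on which the account of Cd44, Vcan and Hyal1 turns. They are printed 5′ to 3′ in the sense of the transcript, on mm9 as the files place them, in lower case with nothing marked. Probes that may lie in untranslated sequence are given by their first 30 bases.

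Cd44 A_55_P2166488, chr2:102677971-102678030, minus strand, whole: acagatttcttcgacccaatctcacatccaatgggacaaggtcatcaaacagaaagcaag

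Cd44 A_55_P2166486, chr2:102672645-102672704, minus strand, whole: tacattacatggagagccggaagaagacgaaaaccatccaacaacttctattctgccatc

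Cd44 A_55_P2166501, chr2:102654278-102654337, minus strand, first 30 bases: gacgagacccggaatctgcagagtgtggac

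Cd44 A_55_P2064043, chr2:102651398-102651457, minus strand, first 30 bases: tcagaggcagctggcatcctttgttttgtt

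Vcan A_55_P1960208, chr13:89851810-89851869, minus strand, whole: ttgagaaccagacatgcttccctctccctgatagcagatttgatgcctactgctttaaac

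Vcan A_55_P1960202, chr13:89795080-89795139, minus strand, first 30 bases: ttcatcctaatgtgtactagagcacagaaa

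Hyal1 A_51_P479408, chr9:107481893-107481952, plus strand, first 30 bases: aatagtcacatagtgaatcagagtttagga

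Hyal1 A_55_P2041823, chr9:107483891-107483950, plus strand, first 30 bases: agcattatggtctacacctttcatcccagc

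The first pair of Cd44 probes starts at bases 1777 and 1965 of the Cd44 transcript NM_009851. They encode part of the stretch that cells splice in or leave out, known as the variable exons. The other pair starts at bases 2614 and 5494, towards the 3′ end that the transcripts share. The Vcan probe A_55_P1960208 starts at base 1428 of its transcript, in the 5′ part, and A_55_P1960202 at base 12207, near the 3′ end of the long transcript.

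Of the 9 genes tested, 4 (Has1, Has2, Cd44 and Tnfaip6) were called higher in PPE aortas, 1 (Hyal1) was called lower, and 4 were not called by limma at an adjusted p under 0.01. Over all 22520 names, 13.8% were called higher, 9.96% lower and 23.8% in either direction. The PPE and sham values did not overlap in 5 of the 9, the same genes that were called, against 25.5% of all names. The median difference of the 9 was 0.78, against 0.02 over all names. These shares describe 9 genes picked with earlier results known, and no test of them was made.

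**Figure D1:**
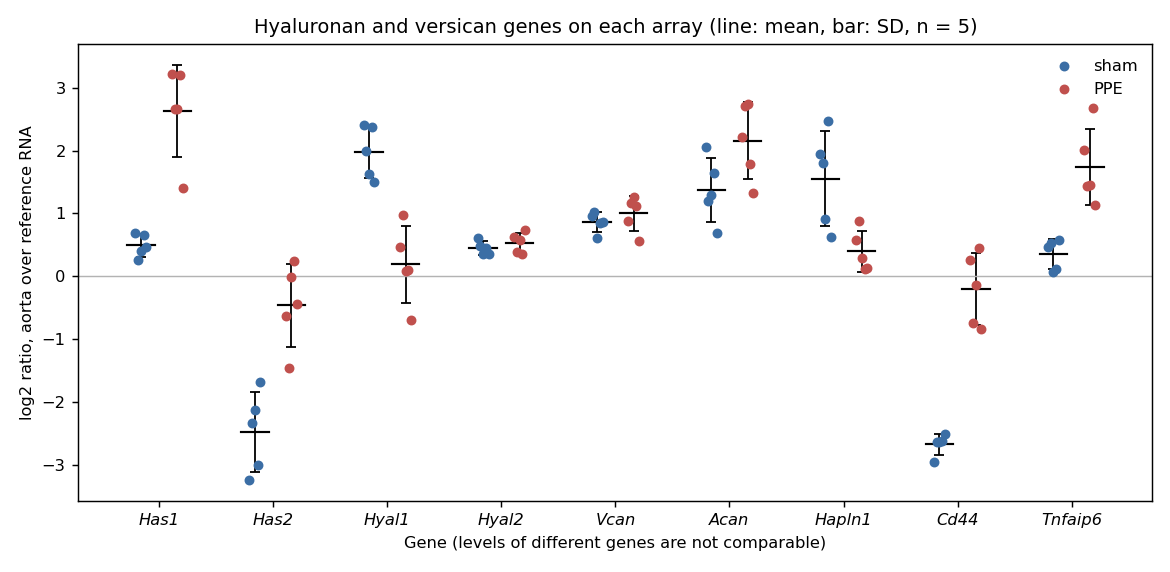
Log2 ratio of aorta over reference RNA (vertical axis) for the 9 tested genes (horizontal axis), 1 point per array, blue for sham and red for PPE, with the mean (line) and SD (bar, n = 5). Red points stand clear above blue ones for Has1, Has2, Cd44 and Tnfaip6 and clear below them for Hyal1, and the colours mix for the other 4 genes.

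Both synthases that could be measured were higher after elastase. Has1, a synthase known for its low activity and its induction by inflammatory signals, is probed at chr17:17980413-17980472. Its log2 ratios were 0.68, 0.26, 0.40, 0.66 and 0.47 in sham aortas 1 to 5, and 3.21, 2.66, 2.67, 3.20 and 1.41 in PPE aortas 1 to 5. The sham values lay within a narrow band, and PPE 5 was the lowest of its group but above every sham aorta. The difference was 2.13 (SE 0.29, adjusted p = 1.85e-04, limma), or 4.39-fold.

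Has2, the main synthase of mesenchymal cells and the one without which mouse embryos die of heart and vessel defects, is probed at chr15:56497356-56497415. Its ratios were -3.23, -2.32, -2.11, -2.998 and -1.68 in sham aortas, and -0.63, -1.46, -0.00, 0.24 and -0.44 in PPE aortas. The lowest PPE value lay just above the highest sham value, so the groups were apart by a small gap. The difference was 2.01 (SE 0.35, adjusted p = 9.92e-04), or 4.03-fold, and the red signal was well above background in 4 of 5 sham and 5 of 5 PPE aortas. With the scanner software's own log ratio, which has no offset, the Has2 difference was 3.13 and that of Has1 2.35. An offset such as that of the processing used here draws ratios of dim probes towards 0, and its part in these gaps was not tested.

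The rises of Has1 and Has2 could not be told apart. Measured within each array, their difference changed by 0.12 (SE 0.54) between the groups, with p = 0.794 by an exact permutation test over the 10 arrays, and the sign turned under other processing. This was 1 of 5 pairs tested, whose p-values were adjusted together. Has3, the other synthase, was well above background in the red channel on 0 of 10 arrays and was not tested (probe at chr8:109405354-109405413). Its ratios ran from -0.31 to 0.10 in sham and from -0.12 to 0.05 in PPE aortas, which at this signal says nothing of its change.

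The 2 hyaluronidases parted. Hyal1, the lysosomal enzyme that cuts hyaluronan into short pieces, was lower in PPE aortas by both of its probes. With the brighter, A_55_P2041823, the sham ratios were 2.40, 1.99, 1.62, 2.38 and 1.50 and the PPE ratios 0.48, 0.98, 0.09, 0.11 and -0.69. Every PPE aorta lay below every sham aorta, with PPE 2 nearest to them. The ratio fell by 1.79 (SE 0.29, adjusted p = 5.49e-04). This probe belongs to a cDNA (AK028942) that runs past the RefSeq transcript, while A_51_P479408 lies on that transcript itself. The letters of A_55_P2041823 shown above resemble a common mouse repeat, and whether other transcripts bind it was not tested.

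With A_51_P479408, the Hyal1 ratios were 2.27, 2.10, 1.41, 2.38 and 1.52 in sham and -0.70, 0.04, -0.80, -0.58 and -0.69 in PPE aortas. The difference was -2.48 (SE 0.22, adjusted p = 9.25e-06 in a limma fit over probes). The gap between both probes grew by -0.69 (SE 0.21, exact permutation p = 0.0238, adjusted 0.0333 over 7 probe pairs chosen after their values were seen). The size of the Hyal1 change therefore depended on the probe, and its direction did not. In RefSeq (GRCm38.p6), Hyal1 overlaps its neighbour Hyal3 by 404 bases, so signal of the 2 genes may be shared.

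Hyal2, the membrane-anchored enzyme that makes the first cuts in long chains, lies 4.17 kb from Hyal1 on chromosome 9 and was not called. Its ratios spanned 0.36 to 0.62 in sham and 0.36 to 0.74 in PPE aortas, so the groups overlapped almost fully. The difference was 0.08 (95% interval -0.15 to 0.32, adjusted p = 0.600), and its sign turned with slide as a block (-0.01). The unequal change of the hyaluronidases was itself tested. Hyal1 minus Hyal2 fell by 1.87 (SE 0.36, exact permutation p = 0.00794, the smallest that 5 against 5 arrays allow, adjusted p = 0.0132 over the 5 pairs). It rests on the Hyal1 probe of doubtful specificity, and with the mean of both Hyal1 probes it was -2.22 (adjusted p = 0.0132, exact permutation test). Has2 minus Hyal2 changed by 1.93 in the other direction (SE 0.44, adjusted p = 0.0132, exact permutation test).

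**Figure D2:**
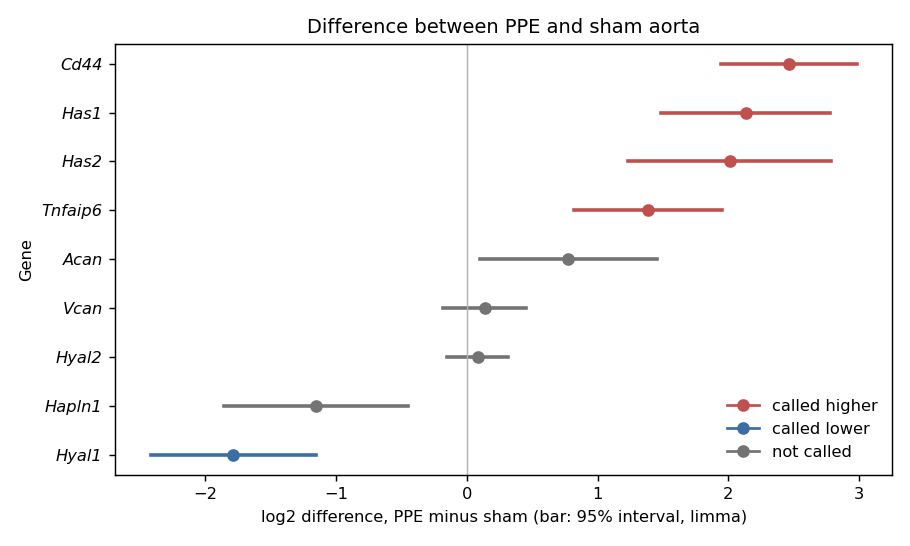
Difference between PPE and sham aortas on the log2 scale (horizontal axis) for each tested gene (vertical axis), with its 95% interval from limma (bar), red for genes called higher, blue for called lower and grey for not called. The differences run from 2.46 for Cd44 to -1.79 for Hyal1, and the intervals of Vcan and Hyal2 cross 0.

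The proteoglycans and the link protein were not called by limma, though Hapln1 was by SAM and under several alternatives. Versican, the main large proteoglycan of the vessel wall, was measured at its 3′ end (A_55_P1960202) with ratios of 0.97, 1.03, 0.61, 0.86 and 0.86 in sham and 0.89, 1.16, 1.27, 1.12 and 0.56 in PPE aortas. The groups overlapped, and PPE 5 was the lowest of all 10. The difference was 0.14 (95% interval -0.18 to 0.46, adjusted p = 0.520), an interval that leaves out a change as large as that of either synthase.

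The 5′ probe of Vcan, A_55_P1960208, gave another picture. Its ratios were -1.05, -0.92, -1.24, -1.15 and -0.65 in sham and -0.75, -0.05, -0.41, -0.65 and 0.38 in PPE aortas, with PPE 1 and PPE 4 within the sham range and the other 3 above it. The difference was 0.71 (SE 0.21, adjusted p = 0.0222 in the fit over probes), short of the threshold. The 2 probes differed in their change by 0.57 (SE 0.31, exact permutation p = 0.0476, adjusted p = 0.0556 over 7). With the scanner software's log ratio the gap was 0.94 (adjusted p = 0.0278, exact permutation test), which was looked at after the first values were seen. The other Vcan probe, A_52_P1044655 on the short transcript NM_172955 (chr13:89850072-89850131), was well above background on 0 of 10 arrays.

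Aggrecan (Acan), best known from cartilage, had ratios of 2.06, 1.19, 1.29, 1.65 and 0.70 in sham and 2.22, 2.71, 2.74, 1.78 and 1.32 in PPE aortas (probe at chr7:86259741-86259801). PPE 1, 2 and 3 lay above all sham aortas, and PPE 4 and 5 among them. The difference was 0.78 (95% interval 0.10 to 1.46, adjusted p = 0.0725), and it was 0.21 with the scanner software's log ratio. Versican did not differ detectably from aggrecan in its change (difference -0.64, SE 0.29, exact permutation p = 0.0714, adjusted p = 0.0893). Of the chondrocyte markers, 1 of 2 tested was called higher (Col2a1, 1.32, well above background in 1 sham and 5 PPE aortas). The other, Chad, went the other way and was not called (-0.285, adjusted p = 0.133, limma). Matn1 was well above background on 0 of 10 arrays, and Col9a1 and Cnmd did not pass the filter on dim signal either.

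Hapln1, the link protein that locks hyaluronan to versican and aggrecan, had ratios of 1.95, 1.81, 0.92, 2.46 and 0.63 in sham and 0.57, 0.89, 0.29, 0.12 and 0.13 in PPE aortas (probe at chr13:89751096-89751155). Sham 5 and PPE 2 were the values that crossed. The difference was -1.15 (SE 0.32, adjusted p = 0.0152), which missed the threshold, and limma called Hapln1 lower without sham 3 or sham 5 and with slide or scan day as a block. The signal was dim, with red well above background in 4 sham and 2 PPE aortas and green on 0 of 10 arrays. The size of its change, -3.18 with the scanner software's log ratio, is therefore poorly known.

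Hapln1 and Vcan lie 43.5 kb apart on chromosome 13. Vcan minus Hapln1 rose by 1.29 (SE 0.35, adjusted p = 0.0132, exact permutation test), and by 3.20 with the scanner software's log ratio (adjusted p = 0.0397, exact permutation test). The dim Hapln1 probe limits this comparison, whose size is as poorly known as that of Hapln1. Acan likewise has a link protein gene, Hapln3, at 1.93 kb, whose difference was 0.14 (adjusted p = 0.531).

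Cd44, the receptor through which leukocytes, smooth muscle cells and fibroblasts bind hyaluronan, had the largest difference of the 9 genes with the processing used here, while with the scanner software's log ratio and the series matrix Has2 and Hapln1 exceeded it in size. With the probe towards its shared 3′ end, A_55_P2166501, the ratios were -2.95, -2.63, -2.63, -2.61 and -2.51 in sham and 0.26, -0.73, -0.14, 0.45 and -0.84 in PPE aortas. Sham aortas were nearly alike, with sham 1 lowest, and all PPE aortas lay far above them. The difference was 2.46 (SE 0.24, adjusted p = 1.44e-05), or 5.52-fold. The probe further 3′, A_55_P2064043, gave 2.18 (SE 0.13, adjusted p = 6.16e-07 in the fit over probes), from between -0.65 and -0.36 in sham to between 1.36 and 1.85 in PPE aortas. These probes did not differ detectably in their change (0.28, SE 0.17, exact permutation p = 0.167).

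The Cd44 probes in the variable exons were dim. A_55_P2166488 was well above background in 2 of 5 sham and 5 of 5 PPE aortas, and its ratio was higher in PPE by 0.90 (SE 0.16, adjusted p = 0.00125 in the fit over probes). A_55_P2166486 was so in 0 sham and 4 PPE aortas and did not pass the filter on dim signal. Its mean red signal was at least 1.16-fold higher in PPE aortas, but its ratios overlapped. They ran from -0.665 to -0.089 in sham and from -0.525 to 0.173 in PPE aortas (difference 0.24, exact permutation p = 0.183). The first changed less than A_55_P2166501 by 1.57 (SE 0.23, exact permutation p = 0.00794, adjusted p = 0.0139), and this gap depended on the processing. With the scanner software's log ratio both variable probes rose by 2.53 and 2.24, near the 2.78 and 2.17 of the 3′ probes. The 2.24 belongs to A_55_P2166486, with 0 sham aortas well above background, so its size is poorly known. The gap between A_55_P2166488 and A_55_P2166501 was 0.24 (SE 0.26, exact permutation p = 0.373). No difference in splicing can be read from these values.

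Tnfaip6 encodes TSG-6, which moves heavy chains of the serum protein inter-alpha-inhibitor onto hyaluronan and so cross-links it. Its brightest probe, A_55_P2147081 (chr2:51912073-51912132), had ratios of 0.47, 0.53, 0.07, 0.11 and 0.58 in sham and 2.01, 1.43, 1.45, 2.67 and 1.14 in PPE aortas. The groups were apart, with PPE 4 highest. The difference was 1.39 (SE 0.26, adjusted p = 0.00144), or 2.61-fold. Its other 2 probes, both dim and rich in A and T, gave 0.45 and 0.41 (adjusted p = 0.0646 and 0.0408), and 1.08 and 1.09 with the scanner software's log ratio.

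**Figure D3:**
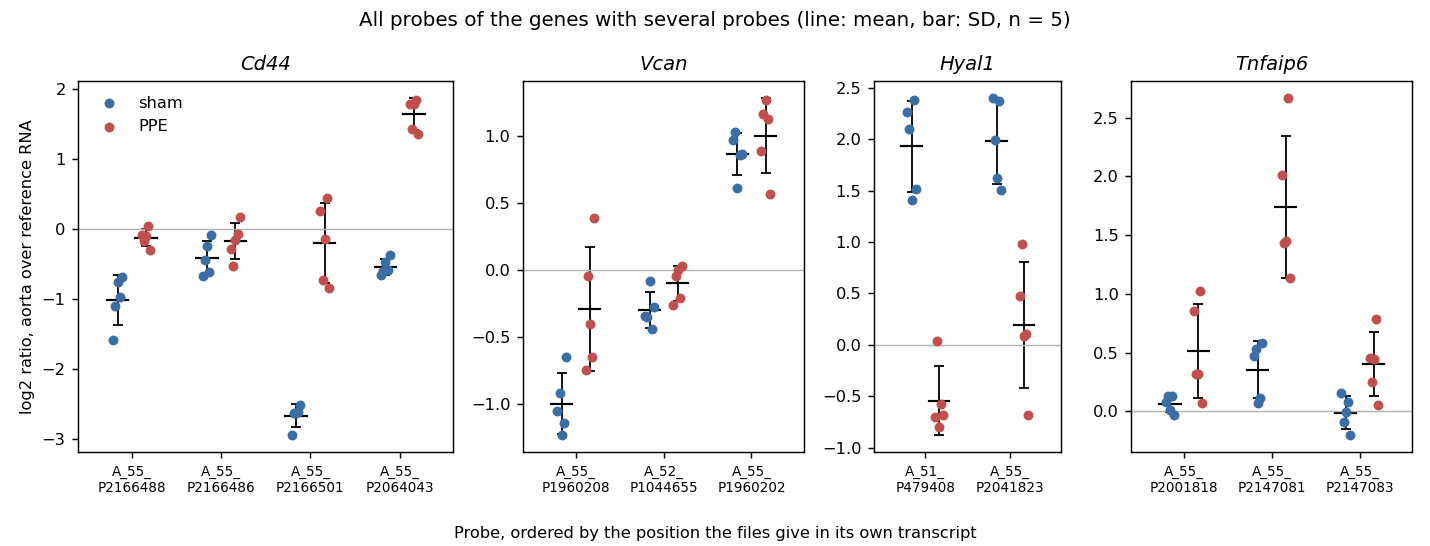
Log2 ratio of aorta over reference RNA (vertical axis) on each array for every probe of the 4 genes with several probes (horizontal axis), blue for sham and red for PPE, with the mean (line) and SD (bar, n = 5). The colours part for both Hyal1 probes, for 3 of 4 Cd44 probes and for 1 of 3 Tnfaip6 probes, and they mix for every Vcan probe.

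The differences were also read within slide and scan day, as the file headers give them. Slides 1 and 2 held both groups, slide 1 with sham 1 alone against PPE 1 and PPE 2, so that its values rest on a single sham aorta and carry no test. Within them the difference was 2.25 and 2.61 for Has1, 2.19 and 2.34 for Has2, 2.71 and 2.78 for Cd44, and 1.25 and 1.76 for Tnfaip6. For Hyal1 it was -1.67 and -1.71. Acan varied more, at 0.41 and 1.02, and Vcan stood at 0.06 and 0.38. Slide 1 was also the whole of scan day 2, and within scan day 1 all 9 genes kept the sign of their difference.

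The other genes of the pathway were read from lists of 54 names, of which 51 were tested. Of these, 15 were called higher and 3 lower, and 33 were not called, with a median difference of 0.30. The 15 include Cemip, which passed the filter on dim signal through the PPE aortas alone. They also include Ptx3, which was well above background in 1 sham and 5 PPE aortas. The share called, 18 of 51, stands beside the 23.8% of all names. The lists were written with earlier results of these data known.

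The supply of sugars for hyaluronan showed a single call. Gfpt1, the gate enzyme of hexosamine synthesis, was higher by 0.73 (SE 0.13, adjusted p = 9.43e-04), from between -1.24 and -0.88 in sham to between -0.70 and -0.14 in PPE aortas. Ugdh, which makes the glucuronic acid donor, stood at 0.44 and Ugp2 at -0.31, and neither was called.

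On the breakdown side, lysosomal glycosidases that finish the chain were higher while Hyal1 was lower. Gusb (beta-glucuronidase) rose by 1.45 (SE 0.18, adjusted p = 9.76e-05) and Hexa, a subunit of lysosomal hexosaminidase, by 1.03 (SE 0.15, adjusted p = 3.13e-04). In both the groups did not overlap. Cemip, a hyaluronan-binding protein needed for breakdown outside lysosomes (9930013L23Rik in the files), was called higher too. It passed the filter through the PPE group alone, being well above background in 0 sham and 5 PPE aortas. Its call therefore adds no support. Its red signal was at least 1.82-fold higher in PPE aortas. Cemip2 stood at 0.16 and was not called. These enzymes also serve other glycans, and Hexa and Gusb are made in quantity by macrophages, whose markers rose alongside. That share was not tested.

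Among the receptors, Cd44 alone of 5 was called. Lyve1, of lymphatic vessels and some macrophages, had 0.22 (adjusted p = 0.629), Stab1 0.34 and Stab2 1.34 (adjusted p = 0.0887), the last with one sham aorta at 1.70 and PPE values from 0.51 to 3.60. Hmmr, which also serves the mitotic spindle, had 0.43 (adjusted p = 0.0223) and was called by SAM. Of the 4 lecticans, 0 were called by limma or SAM, with 2 at an unadjusted p under 0.05 (Acan and Ncan, the latter at -0.53). Of the 3 tested link proteins, 0 were called by limma, and Hapln1 was called by SAM and was the 1 with an unadjusted p under 0.05.

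Of the partners of TSG-6, Ptx3 moved most. Pentraxin 3 is an inflammation-induced protein that helps TSG-6 to hold the hyaluronan network together. Its ratios lay between -4.02 and -1.63 in sham and between -1.09 and 1.01 in PPE aortas. The difference was 2.78 (SE 0.46, adjusted p = 6.88e-04, limma). Red was well above background in 1 sham and 5 PPE aortas, so the size of this difference is poorly known. The genes of inter-alpha-inhibitor were not called by limma. Itih2 (-1.06, adjusted p = 0.0103) and Ambp (1.51, adjusted p = 0.01001) lay just past the threshold, in opposite directions, and SAM called both.

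Of 6 tested proteases that cut versican and aggrecan, limma called 1 higher and 1 lower, and 4 were not called. Adamts4, called aggrecanase-1, rose by 2.88 (SE 0.28, adjusted p = 1.35e-05), from between -2.61 and -1.35 in sham to between 0.23 and 1.42 in PPE aortas. Adamts1, a versican-cleaving protease, fell from 1.67 ± 0.62 (SD, n = 5) to -0.05 ± 0.36 (n = 5; limma difference -1.72, adjusted p = 5.99e-04). Adamts5, the other main aggrecanase, differed by -0.10 (adjusted p = 0.758), Adamts8 by -0.71 (0.131), Adamts15 by 0.91 (0.229) and Adamts9 by 0.58 (0.0259), the last called by SAM.

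Enzymes of the chondroitin sulfate chains gave 4 calls higher and 1 lower of 12. Chst11, which sulfates the chain at the 4 position, rose by 1.30 (SE 0.17, adjusted p = 1.19e-04), and Chst3, which sulfates it at the 6 position, fell from 3.18 ± 0.51 to 0.96 ± 0.77 (SD, n = 5 each; limma difference -2.22, adjusted p = 4.97e-04). Csgalnact1, which starts the chain, rose by 0.63 (adjusted p = 0.00390). Chpf2 and Xylt2 were called by their brightest probe (0.74 and 0.59), while other tested probes of these genes gave values down to -0.28 and 0.08.

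Of the proteins that bind the end domains of versican, 3 of 5 were called higher. These were fibulin-2 (Fbln2, 1.45, adjusted p = 8.56e-05), fibrillin-1 (Fbn1, 1.35, adjusted p = 0.00116) and fibulin-1 (Fbln1, 0.85, adjusted p = 0.00715, with overlapping groups). Tnc stood at 0.19. Beneath the membrane, ezrin (Ezr), which ties Cd44 to actin, was higher by 1.06 (adjusted p = 8.27e-04) and its relative radixin (Rdx) lower, at -0.49 (adjusted p = 0.00417).

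**Figure D4:**
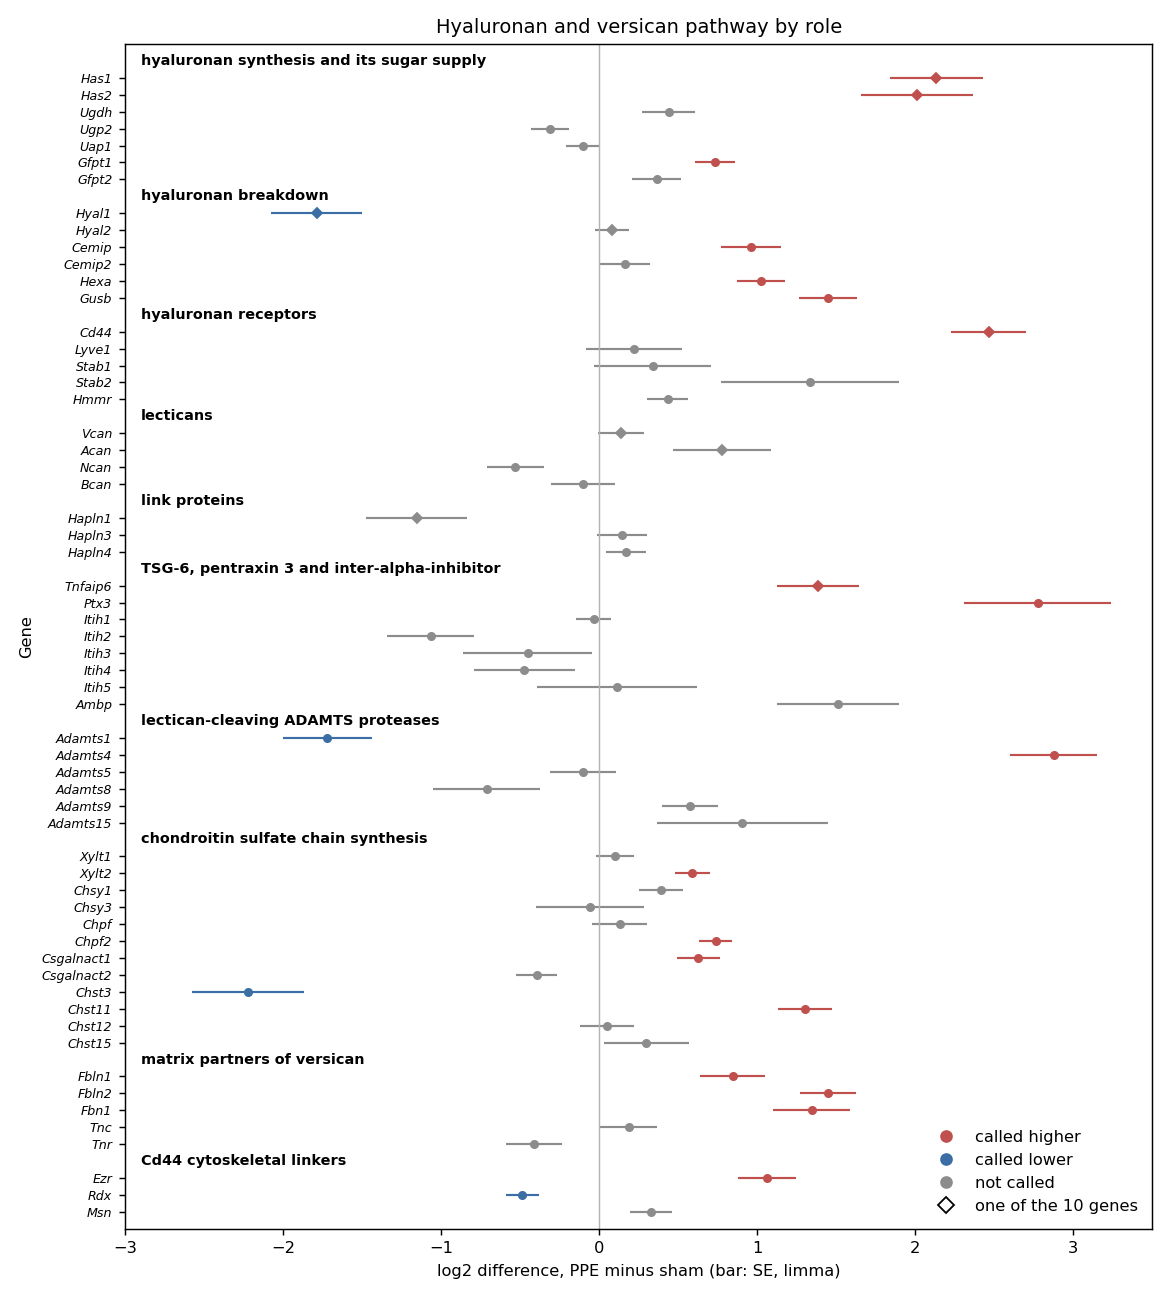
Difference between PPE and sham aortas on the log2 scale (horizontal axis) with its SE from limma (bar) for the tested genes of the pathway lists (vertical axis, without 1 that is not reported here), grouped by role, red for called higher, blue for called lower, grey for not called and a diamond for one of the 10 genes. Adamts4 (2.88), Ptx3 (2.78) and Cd44 (2.46) lie furthest right, and Chst3 (-2.22), Hyal1 (-1.79) and Adamts1 (-1.72) furthest left.

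The genes whose pattern over the 10 arrays was nearest to 4 of the members were found by the root mean square difference of log2 ratios, each gene centred on its own mean, among 10632 genes above background on all arrays. Nearest to Cd44 were Tifa (0.19), Hmox1 (0.23) and Tnfaip3 (0.23). Nearest to Has2 were Soat2 (0.28), Kif20a (0.29) and Trip13 (0.30). For Tnfaip6 they were Cstb (0.22), Tspan6 (0.24) and Gusb (0.27), and for Vcan they included Asxl1 (0.11) and Fbxl12 (0.12), both with small differences. Such likeness follows the split between the groups first, and nothing is read from it about shared control.

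Promoter sequence was at hand for 8 of the 10 genes, without Has2 and Has3, in RefSeq (GRCm38.p6), and the 250 bases before each start were searched on both strands. The AP-1 motif (TGANTCA), bound by Fos and Jun proteins, was found in 1 of the 8, Tnfaip6, against 6.75% of 32851 promoters. The NF-kB motif was found in 2, Hyal2 and Acan, neither of them called, against 3.90% of promoters. The promoters of Tnfaip6 and Hyal2 are shown, as the one that holds the AP-1 motif and one that holds the NF-kB motif, with the match in capitals.

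Tnfaip6, chr2:52037863-52038112, plus strand: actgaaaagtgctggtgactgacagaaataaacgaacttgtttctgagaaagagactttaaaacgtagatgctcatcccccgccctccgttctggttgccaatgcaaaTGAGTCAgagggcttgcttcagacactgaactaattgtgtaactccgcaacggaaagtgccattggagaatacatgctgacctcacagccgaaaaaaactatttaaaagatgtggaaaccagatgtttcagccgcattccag

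Hyal2, chr9:107568913-107569162, plus strand: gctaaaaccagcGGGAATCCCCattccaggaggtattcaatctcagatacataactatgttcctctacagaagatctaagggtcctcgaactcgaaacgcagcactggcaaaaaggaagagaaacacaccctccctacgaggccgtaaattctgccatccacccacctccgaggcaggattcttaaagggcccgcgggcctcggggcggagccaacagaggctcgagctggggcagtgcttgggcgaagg

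The AP-1 match of Tnfaip6 lies 142 to 136 bases before its start. The NF-kB match of Hyal2 lies 238 to 229 bases before the start used for it. That start is not the first base of the gene, since the Hyal2 stretch lies inside the gene in RefSeq (chr9:107567873-107572778). The stretches searched for Has1 and Vcan also lie inside their genes. These matches describe letters only. Promoters of Has1, Cd44 and Hyal1, which changed, held neither motif in this window, and that says nothing of the factors.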

How the data were processed

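Aortic RNA of 5 PPE and 5 sham mice was hybridized to 2-colour Agilent arrays with no dye swap. The authors extracted spots with Feature Extraction 10.7.3.1 and, per the study's methods, left out some arrays after quality control and clustering, which ones not being stated. Deposited spot signals are linear intensity values. The authors' LogRatio is on a log10 scale, red against green, and was converted to log2. Their deposited series matrix holds log2 ratios. Signals were corrected by normexp (offset 50) and loess within each array, using limma 3.58.1 (R 4.3.3). Probes entered the test with red signal above background on 5 or more of 10 arrays, and a gene was its brightest tested probe. Groups were compared two-sided, unpaired, with Benjamini-Hochberg adjustment over all names. Single values and pairs were compared by exact permutation tests over arrays, with the pairs of genes judged at an adjusted p under 0.05. A fold bound sets the bright group against the lowest signal above background. Fold bounds and summed red signals use red signal rebuilt after a further normalization between arrays (Aquantile in limma). Scripts were tested on simulated data. Alternatives were other backgrounds, normalizations, filters, probe rules, blocks, SAM written anew (100 drawn relabellings) and arrays left out. The members and lists were chosen with earlier results of these data known. Named genes were all members, called list genes, 1 or 2 markers per list and, for Has2, Vcan, Cd44 and Tnfaip6, the 3 genes of nearest pattern. Some genes that met this rule are not reported here. Genes named beyond this were chosen after their values were seen. Probe positions are on mm9 as deposited.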

Additional observations from a re-analysis of the deposited data

Results flagged for a closer look

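One group held an array that stood apart from the others. In the sham group, the Cd44 ratio of sham 1 was -2.95, and its gap to the next array took a share of 0.725 of the group's range, above Dixon's critical value of 0.71 for 5 samples. Of 28 groups examined this was 1, and chance gives about 1 in 20. The array lay on the side away from the PPE values.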

How the results depend on the processing

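The 4 genes called higher and Hyal1 kept their call under every alternative run for them except median centring of each array, where Has2 alone stayed called. There Has1 was 1.96 (adjusted p = 0.0268), Hyal1 -1.06 (0.466), Cd44 2.996 (0.0134) and Tnfaip6 1.60 (0.0631), members called were 1 higher and 0 lower, and pathway genes called were 2 higher and 0 lower. The median of all names then lay at 0.41, with 408 called higher and 8 lower against 3116 and 2243, and relative to it Has1 stood at 1.55, Hyal1 at -1.46, Cd44 at 2.59 and Tnfaip6 at 1.19. SAM, written anew here, called 4875 names higher and 3263 lower of 22489. The filter on all 10 arrays removed Has2 and Hapln1.

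Members called lower numbered 2, with Hapln1, under no background subtraction (-1.02), slide as a block (-1.18), scan day as a block (-1.26), SAM (-1.15) and without sham 5 and PPE 5 together (-1.32). Pathway genes called lower were 7 with the LogRatio and the series matrix, and 5 with scan day or SAM. Has1 minus Has2 turned to -0.78 with the LogRatio and the series matrix and to -0.44 with median centring. Hyal2 turned to -0.014 with the slide block and lay at -0.11 within slide 1, the whole of scan day 2. Causes were not tested.

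With 1 array left out in turn, members called were 4 higher each time and 1 to 2 lower, and pathway genes 13 to 17 higher and 2 to 4 lower. Differences ran from 1.99 to 2.44 for Has1, 1.82 to 2.26 for Has2, -1.98 to -1.57 for Hyal1, 2.30 to 2.62 for Cd44, 1.15 to 1.54 for Tnfaip6 and -1.38 to -0.93 for Hapln1, called without sham 3 or sham 5. Has1 minus Has2 ran from -0.14 to 0.43, below 0 without sham 5, PPE 1 or PPE 2.

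Replicate numbers are shared between the groups, and the labels do not say whether they pair mice. After group means were removed, same-numbered arrays correlated at 0.29, -0.30, 0.16, -0.14 and 0.52. Of the 10 arrays, 3 correlated best with their own number. These values neither show nor exclude a pairing, and the main comparison was unpaired. With the replicate block, Hapln1 was called (-1.15, adjusted p = 0.00949), so members called lower were 2, and the tests of Hyal1 minus Hyal2 (-1.87), Vcan minus Hapln1 (1.29) and Has2 minus Hyal2 (1.93) gave an adjusted p of 0.104, since 5 pairs cannot reach the threshold. Dim probes (Has2, Hapln1, the variable Cd44 probes) are limited by signal over background.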
